A study of Drosophila melanogaster with 8 samples.

Results

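The transcript response of Rover larvae to a mutation in a soluble guanylyl cyclase gene was read from 4 arrays, those labelled Rover mutants, of 8 in the study. The larvae were Drosophila melanogaster of instar 3 and were untreated, per the labels. On each Rover array, channel 1 held total RNA of Rover control larvae and channel 2 held total RNA of Rover larvae carrying the DGCalpha1[3] allele, so both channels share the Rover background and the mutant allele is the named difference between them. The other 4 arrays made the same comparison in the sitter background and are used here only to ask where Rover differs.

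Soluble guanylyl cyclase makes cyclic GMP when it binds nitric oxide. It works as a dimer, and the mutated gene, now named Gycalpha99B, encodes its alpha subunit. Cyclic GMP acts through protein kinases, ion channels and phosphodiesterases, and 1 such kinase is the product of the foraging gene, whose natural alleles give the Rover and sitter types of larval feeding path.

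Each value is a ratio of the channels of 1 array, taken as log2 and centred on the median of that array. The labels do not give the dye of each channel or the numerator of the ratio. The sign of a ratio is therefore given and no direction in the mutant is drawn from it. The control was in the same channel on each Rover array, so a bias of dye or channel cannot be told apart from the allele. Whole larvae were extracted, so fewer cells of a type and less RNA per cell cannot be told apart. The table holds ratios without levels, so the tissue could not be checked against its markers. Whether the 4 arrays came from separate larvae is not stated, so p-values cover array-to-array spread, which may be purely technical.

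Array Rover 1 was of print lot A, was hybridised for 15.75 hours and was scanned at a Cy5 gain of 67, while Rover 2 to 4 were of print lot B, were hybridised for 17.75 hours and were scanned at a gain of 64. Ratios were narrowest on Rover 1, with an SD over features of 0.51, against 0.71, 0.79 and 0.69 on Rover 2, 3 and 4. Across features the 6 pairs of Rover arrays correlated between 0.413 and 0.599, and spots of the same gene on 1 array between 0.678 and 0.781. These correlations describe the arrays, which share probes and print layout.

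Of 6793 named genes, 1081 had a positive and 1196 a negative mean ratio at a limma adjusted p under 0.05, which is 15.9% and 17.6% of the genes. Such genes are written here as called, and these shares are the background for the list counts below. The 2277 called genes (33.5%) had modest ratios as a rule: the median was 0.53 among the positive and -0.63 among the negative, 45 were over 1 and 66 under -1. One sign on all 4 arrays was seen in 2269 of them, beside 58.4% of all genes. A call tests the mean of these same 4 arrays, so this follows largely from the selection. The calls lay close to the threshold, with an adjusted p between 0.025 and 0.05 for 2124 genes and under 0.01 for 1 gene, CG11911. Without Rover 2, Rover 3 or Rover 4, CG11911 was the only gene still called, and the largest adjusted p among the 2277 genes was then 0.168, 0.149 and 0.164. Without Rover 1, which leaves print lot B, 746 positive and 1057 negative genes were called and 1558 of the 2277 were among them.

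The split between signs depends on the centring. As deposited, the Rover ratios lie 0.41 lower on average, and 72 genes (1.06%) were called positive against 2683 negative (39.5%). A gene with a centred mean under 0.41 therefore has a negative mean as deposited, which holds for 54 of the genes called positive. Every positive mean below is relative to the median feature. The shares of 1.06% and 39.5% are the background for the counts as deposited below.

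**Figure D1:**
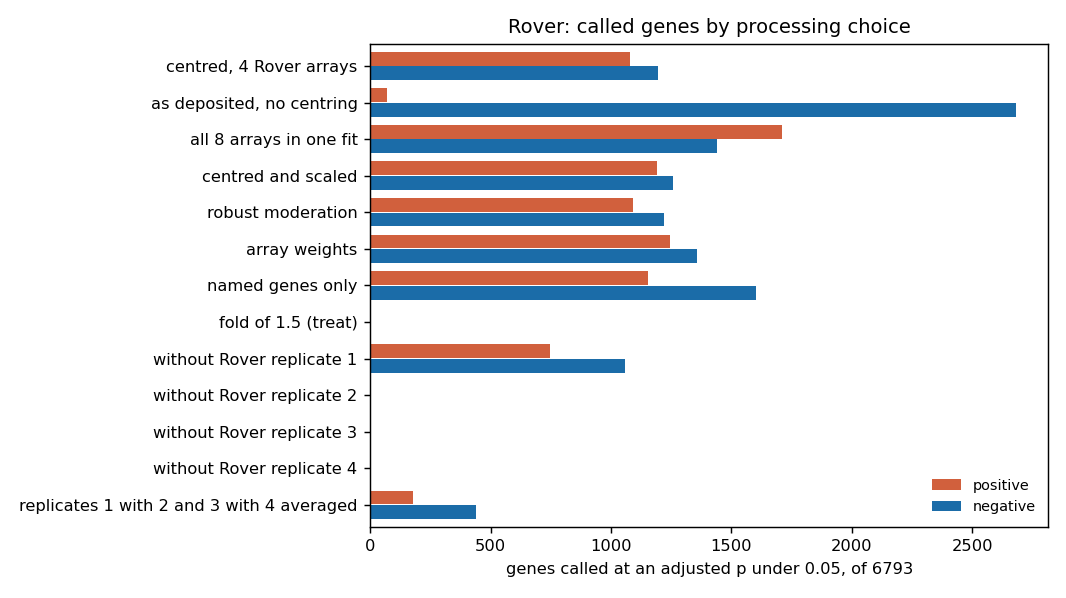
Number of genes called positive (orange) and negative (blue), of 6793, under each processing choice, on a linear axis that starts at 0. The counts are 1081 and 1196 with centring and 72 and 2683 as deposited, and at most 1 gene is called without Rover replicate 2, 3 or 4 or against a fold of 1.5.

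The mutated gene itself was not called. Gycalpha99B read -0.41, -0.57, 0.63 and 0.95 on Rover 1 to 4, a mean of 0.15 ± 0.75 (SD, n = 4) with an adjusted p of 0.672. It was negative on Rover 1 and 2 and positive on Rover 3 and 4. As deposited its mean was -0.26. These spots do not check the labels, since the place of the clone relative to the mutation is not known here.

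Among 13 measured genes of cGMP signalling, 3 were called negative (23.1%, beside 17.6% of all genes) and 0 positive, a share close to the background, with a median ratio of -0.08 beside 0.07 over all genes. Gyc88E, a beta-like subunit of the atypical soluble cyclases, read -0.44, -0.60, -1.17 and -0.49 and had a mean of -0.68 ± 0.34 with an adjusted p of 0.0294. Gyc89Db, another atypical soluble cyclase subunit, read -0.23, -0.77, -0.74 and -0.73 with a mean of -0.62 ± 0.26. Both were negative on every array, and Gyc89Db was closest to 0 on Rover 1. Pde1c, a phosphodiesterase, read -1.37, -0.47, -0.32 and -0.43, so its mean of -0.65 ± 0.48 owes most to Rover 1. The third atypical subunit, Gyc89Da, had a mean of -0.56 ± 0.81 and an adjusted p of 0.152, being -1.75 on Rover 1 and between -0.42 and 0.05 on the rest.

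Another 8 members had smaller means. Nitric oxide synthase (Nos) had -0.08 ± 0.52, the cGMP-dependent protein kinase Pkg21D 0.05 ± 0.52, and the phosphodiesterases Pde6, Pde8 and Pde11 had -0.11, 0.19 and -0.03. The channel subunit CngB had 0.21 and the receptor cyclases CG31183 and CG42637 had -0.02 and -0.14. None of these 8 was called, which does not show that they were unchanged. A receptor-type cyclase outside the list, CG10738, was called negative with a mean of -1.39 ± 0.71 and is described with the largest ratios. As deposited, 6 of the 13 genes were called negative, beside 39.5% of all genes.

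The largest mean ratio of either sign belonged to CG11911, which encodes a trypsin-like serine protease. It read -3.68, -3.29, -3.97 and -3.27 on Rover 1 to 4, a mean of -3.55 ± 0.34 (SD, n = 4) with an adjusted p of 0.000949. The 4 arrays lay close together, and no other called gene reached a mean under -1.77. On the sitter arrays the same gene read 0.54, 0.52, 0.27 and 0.18.

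CG10910 had the largest positive mean among called genes. Its ratios were 3.34, 3.83, 2.38 and 2.13, with a mean of 2.92 ± 0.80 and an adjusted p of 0.025. Rover 1 and 2 were higher than Rover 3 and 4. GstE3, a glutathione S-transferase, showed the same order at 2.11, 2.37, 1.43 and 1.41, and so did Bace, an aspartyl protease, at 2.53, 2.79, 1.08 and 0.86, and CG2065, a short-chain dehydrogenase, at 2.36, 2.59, 0.72 and 1.0. Their means were 1.83 ± 0.49, 1.82 ± 0.98 and 1.67 ± 0.94.

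Fbp2, a fat body protein of the late larva, was higher on the other arrays, at 0.37, 0.95, 4.27 and 2.17. FucTB, a fucosyltransferase, read 0.74, 0.77, 4.15 and 1.73, and CG1850 read 0.38, 0.61, 3.75 and 2.18. In all 3 genes Rover 3 was highest and Rover 4 next. Their means of 1.94 ± 1.72, 1.85 ± 1.61 and 1.73 ± 1.57 were called after centring, while as deposited their adjusted p-values were 0.07, 0.071 and 0.082.

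The arrays agreed better for PPO3, a prophenoloxidase of the lamellocytes, the haemocytes that encapsulate parasites. It read 1.32, 1.62, 1.91 and 1.86, a mean of 1.68 ± 0.27 with the smallest adjusted p among positive genes, 0.0231. Loxl1, a lysyl oxidase that crosslinks extracellular matrix, had a mean of 1.69 ± 0.50, and the cadherin gene Cad96Cb had 1.70 ± 0.70. Both were over 1 on every array.

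On the negative side CG11911 was followed by CG12693 at -1.77 ± 1.54, which ranged from -0.28 on Rover 1 to -3.93 on Rover 4. Its 2 spots disagreed on Rover 4, with 1 of them at -6.19. The cytochrome P450 genes Cyp6a23 and Cyp6a14 had means of -1.75 ± 0.99 and -1.66 ± 0.53. Cyp6a23 was between -1.19 and -1.41 on 3 arrays and -3.23 on Rover 3. Cyp6a14 was between -1.80 and -1.99 on 3 arrays and -0.88 on Rover 4. CG3330 had -1.61 ± 1.40, CG18467 had -1.42 ± 0.87, CG15111 had -1.34 ± 0.78 and CG14636 had -1.29 ± 0.51. The 2 spots of CG3330 disagreed on Rover 3, where the gene read -3.59 and 1 spot -6.99. The receptor-type guanylyl cyclase gene CG10738 read -2.46, -1.08, -1.03 and -0.99, lowest on Rover 1, and rau, a regulator of receptor tyrosine kinase signalling, had -1.30 ± 0.58.

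**Figure D2:**
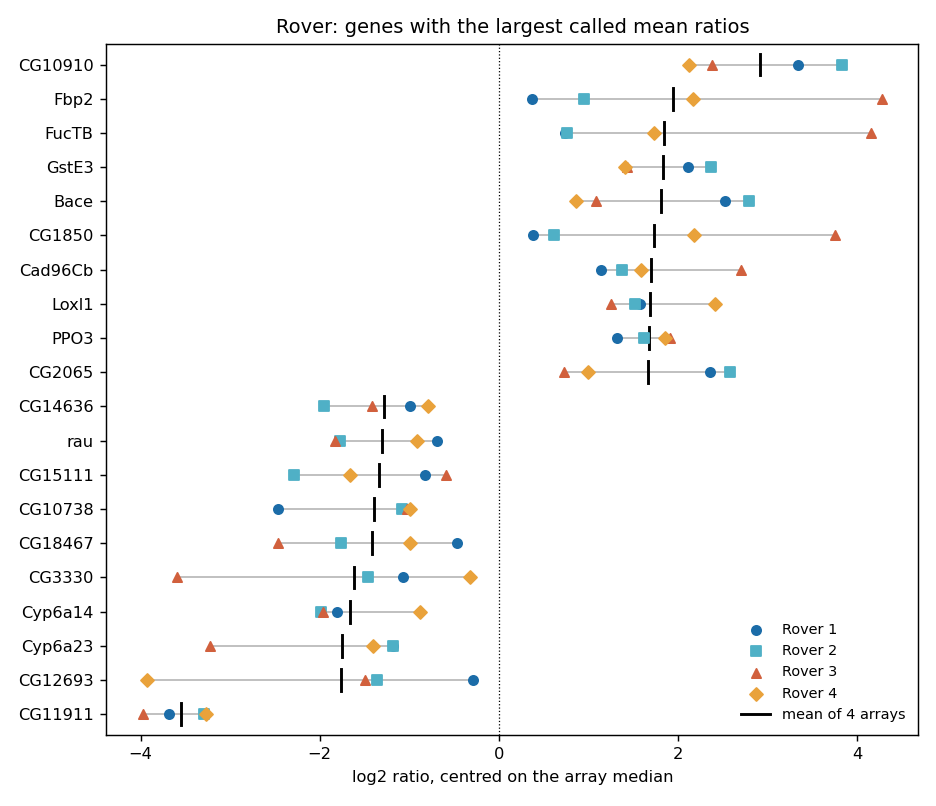
Log2 ratio, centred on the array median, of the 10 called genes with the largest positive and the 10 with the largest negative mean. Each symbol is 1 Rover array and the black bar is the mean of 4 arrays. CG11911 stands apart between -3.27 and -3.97, while Fbp2, FucTB and CG1850 reach 3.75 or more on Rover 3 alone.

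Some genes with smaller means were named for a small limma p-value, and several of them were even across arrays. The median SD over all genes was 0.27. A small p-value at such means favours a small SD on these same arrays, so this evenness follows largely from the selection. Taldo, the transaldolase of the pentose phosphate pathway, read -0.98, -0.88, -0.87 and -0.90, a mean of -0.91 ± 0.05. Gat, the transporter that clears the neurotransmitter GABA, read -0.87, -0.97, -0.88 and -0.86, a mean of -0.90 ± 0.05. In both genes the 4 arrays were nearly equal. Tmtc4 had -1.06 ± 0.13, CG13700 -1.08 ± 0.21, CG17681 -1.10 ± 0.23 and the carbonic anhydrase CAH13 -0.98 ± 0.16. Among positive genes Phae1, a serine protease gene, had 0.93 ± 0.09, Galk, the galactokinase, 1.07 ± 0.15 and CG6933 1.02 ± 0.15. CG9577 had 1.21 ± 0.19, CG14302 had 1.48 ± 0.28 and smp-30, a regucalcin-like gene, had 1.44 ± 0.32. Taldo, Phae1, Galk and smp-30 had Rover and sitter arrays that did not overlap, although none of the 4 differences was called. Choice by a small Rover p-value favours such non-overlap, which was seen in 8.99% of all genes.

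Genes of energy metabolism leaned positive after centring. Of 39 oxidative phosphorylation genes 13 were called positive (33.3%) and 3 negative (7.69%), beside 15.9% and 17.6% of all genes. Their median ratio was 0.35, and as deposited 0 were positive and 7 negative. Without Rover 1, 4 were positive and 3 negative, beside 746 and 1057 of all 6793 genes. ND-24L, named as a like-copy of a complex I subunit, had a mean of 0.65 ± 0.23. ATPsynD, an ATP synthase subunit, had 0.59 ± 0.14, and ATPsynC, of the rotor ring, had 0.50. The 3 negative genes were ND-75 at -0.70 ± 0.29, also of complex I, COX6CL at -0.66 ± 0.21 and ATPsynbetaL at -0.47. COX6CL and ATPsynbetaL are, like ND-24L, named as like-copies, of a complex IV and an ATP synthase subunit.

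Of 20 genes of sugar use, 5 were called positive (25%) and 0 negative, with a median of 0.33. As deposited 0 were positive and 2 negative, and without Rover 1 the positive ones numbered 2. All 5 belong to the 13 genes of glycolysis and gluconeogenesis, and none to the 7 of trehalose and glycogen, where 1 gene had an unadjusted p under 0.05. Gpdh1, glycerol-3-phosphate dehydrogenase, read 1.21, 1.27, 0.28 and 0.52, a mean of 0.82 ± 0.50, with Rover 1 and 2 higher. Fructose-1,6-bisphosphatase (fbp), a gluconeogenic enzyme, read 0.51, 0.74, 0.68 and 0.58, a mean of 0.63 ± 0.10. Pgk, Eno and Tpi, enzymes of lower and middle glycolysis, had means of 0.58, 0.51 and 0.48. Among 20 lipid genes 4 were called positive and 2 negative, 20% and 10% beside 15.9% and 17.6% of all genes (median 0.13). As deposited these became 1 and 7, and without Rover 1, 2 and 2. The beta-oxidation thiolase yip2 had 0.87 ± 0.22 and the lipid droplet protein Lsd-2 0.65 ± 0.27, while the lipase genes Lip2 and Lip3 had -0.87 ± 0.40 and -0.81 ± 0.20.

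Protein synthesis genes came next. Of 33 translation factors and tRNA synthetases 8 were called positive (24.2%) and 1 negative (3.03%), with a median of 0.31. Of 22 cytosolic ribosomal protein genes 3 were positive, 13.6% beside the 15.9% of all genes, and 0 negative (median 0.34). As deposited these became 0 and 2, and 0 and 4. The initiation factor gene eIF3a had 0.66 ± 0.39, eEF5 0.59 ± 0.28 and eIF4H2 0.59 ± 0.12. The exception eIF2D, an initiation and recycling factor, read -0.81, -1.22, -0.96 and -1.01, a mean of -1.0 ± 0.17. RpL23 read 2.02, 1.40, 0.61 and 0.29, so its mean of 1.08 ± 0.78 came mostly from Rover 1 and 2, and RpL27 and RpS10a had 0.58 and 0.46. Near-identical gene copies can cross-hybridise on cDNA spots, so single members are uncertain.

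The 48 mitochondrial ribosomal protein genes were mixed, with 6 called positive and 9 negative (median 0.06), as deposited 1 and 18. The called shares were 12.5% and 18.75%, near the 15.9% and 17.6% of all genes. Their extremes were mRpS34 at 1.34 ± 0.50 and mRpS28 at -0.87 ± 0.29. Of 30 proteasome genes 2 were positive (6.67%) and 1 negative (3.33%), with a median of 0.16. The positive ones were Prosbeta2R1 at 0.59 ± 0.08 and Rpn2 at 0.43 ± 0.10, the negative one Prosbeta4R2 at -0.43 ± 0.20. As deposited 0 were positive and 9 negative, beside 1.06% and 39.5% of all genes. Without Rover 1 these became 1 and 0. Of 17 stress and chaperone genes 1 was positive (5.88%), the chaperonin subunit CCT3 at 0.44, and 5 negative (29.4%, median -0.08). The negative ones included Hsc70-1 at -0.66 ± 0.10, Hsp60D at -0.61 ± 0.25 and the Turandot gene TotB at -0.63 ± 0.21. Of 15 replication and cell cycle genes 1 was positive (6.67%), Mcm3 at 0.46, and 4 negative (26.7%, median 0.08). Those were the cyclin gene CycB at -0.78 ± 0.39, the origin recognition genes Orc2 and Orc5 at -0.75 ± 0.25 and -0.56 ± 0.10, and fzy, an activator of the anaphase-promoting complex, at -0.55 ± 0.15.

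Detoxification genes divided by family. Of 72 cytochrome P450 genes, which oxidise hormones and foreign compounds, 26 were called negative (36.1%) and 3 positive, with a median ratio of -0.29, and as deposited 47 were negative and 0 positive. Beside Cyp6a23 and Cyp6a14, Cyp303a1 had -1.12 ± 0.41 and Cyp312a1 had -1.20 ± 1.0, the latter -2.70 on Rover 1 and between -0.63 and -0.84 on the others. The negative members included the pseudogenes Cyp6a15Psi and Cyp6a16Psi, at -0.90 and -0.84. Close copies in this family can cross-hybridise as well. The 3 positive members were Cyp4d1, Cyp4e3 and Cyp4ac2, at 0.92, 0.80 and 0.45, while the related Cyp4d20, Cyp4d21, Cyp4aa1 and Cyp4ad1 were called negative between -0.47 and -1.01.

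Of 35 glutathione S-transferase and UDP-glycosyltransferase genes, which conjugate such compounds, 12 were called positive and 7 negative (median 0.12). That is 34.3% and 20%, beside 15.9% and 17.6% of all genes. The positive calls were mostly of glutathione S-transferase genes and the negative ones mostly of UDP-glycosyltransferase genes. Exceptions were Ugt305A1 and Ugt35A1, positive at 0.53 and 0.60, and GstE14 and GstO1, both negative. As deposited 1 was positive and 12 negative. GstD2 read 1.66, 1.76, 0.60 and 0.40, a mean of 1.11 ± 0.71, with the same 2 arrays high as in GstE3. GstD1, GstD4, GstD8, GstD9 and GstD10 were also called positive, between 0.51 and 0.81, while the other measured GstD genes were not called, with GstD5 at -0.42, GstD6 and GstD11 at -0.31 and GstD3 at 0.01. Among the negative members were GstE14, a gene of ecdysteroid synthesis, at -0.96 ± 0.61 and Ugt37A1 at -0.88 ± 0.25.

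Genes of the chemical senses had the lowest median of the 26 lists, -0.56. Of 25, 13 were called negative (52.0%) and 0 positive, and as deposited 19 were negative. The members were mostly odorant binding proteins, which carry odours in sensory fluid but are also made in other tissues. The binding protein lush read -0.80, -1.37, -1.09 and -0.82, a mean of -1.02 ± 0.27. Obp56h had -0.87 ± 0.33, Obp19a -0.85 ± 0.46 and Obp57c -0.79 ± 0.41. Obp99b went the other way on 2 arrays, at -0.37, 0.03, 3.06 and 2.20, and was not called (adjusted p = 0.114). The sitter arrays gave this list a like median, -0.58.

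Genes of neuropeptides and amines leaned negative as well, with 10 of 28 called negative (35.7%) and 3 positive (median -0.25), and 14 negative as deposited. Of the 9 genes of serotonin, dopamine and octopamine 5 were negative (55.6%) and 0 positive, and without Rover 1 the negative ones numbered 3. Tyrosine hydroxylase (ple), which starts dopamine synthesis, read -0.70, -1.28, -1.35 and -1.15, a mean of -1.12 ± 0.29. The next enzyme, Ddc, had -0.57, the dopamine transporter DAT -0.70 and the dopamine receptor Dop1R1 -0.82 ± 0.53. Both ple and Ddc also make catecholamines for the cuticle. Among peptide genes FMRFa had -0.91 ± 0.39, the peptide-processing carboxypeptidase gene svr -0.91 ± 0.28 and the eclosion hormone gene Eh -0.64. The 3 positive genes were the insulin-like peptide gene Ilp2 at 0.43, Capa at 0.48 and Nplp1 at 0.65. Of 6 general neuronal markers 1 was called, the synaptic vesicle gene nSyb at 0.52 ± 0.19 (median -0.03).

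**Figure D3:**
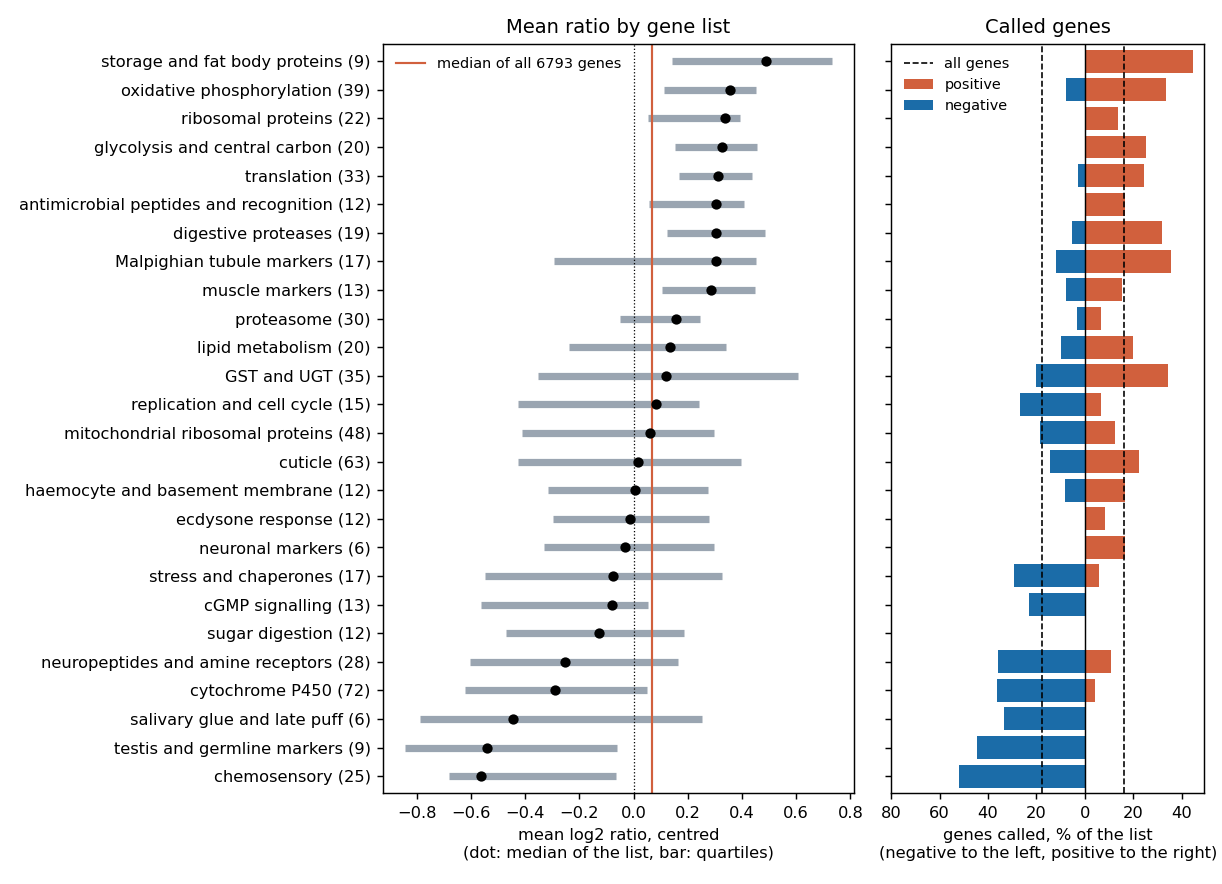
Left, the median (dot) and quartiles (bar) of the mean centred log2 ratio in each of 26 gene lists, with the number of measured genes in brackets and the median of all genes as a line at 0.07. Right, the percentage of each list called positive (orange, to the right) or negative (blue, to the left), with dashed lines at the 15.9% and 17.6% of all genes. Storage proteins lie highest at 0.49 and chemosensory genes lowest at -0.56.

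Of 19 digestive protease genes 6 were called positive (31.6%) and 1 negative (5.26%), with a median of 0.30. As deposited these became 1 and 2, and without Rover 1, 1 and 1. Beside Bace, the trypsin genes gammaTry and thetaTry had 0.79 ± 0.46 and 0.76 ± 0.50. The cathepsin gene CtsL2 was negative on every array, at -0.70, -0.95, -0.88 and -0.56, a mean of -0.77 ± 0.18. Of 12 sugar digestion genes 0 were called by limma and 1 had an unadjusted p under 0.05 (median -0.13), and the amylase-related gene Amyrel read -2.49, -2.59, 0.34 and 0.33. Of 17 Malpighian tubule markers 6 were positive and 2 negative, 35.3% and 11.8% beside 15.9% and 17.6% of all genes (median 0.30). As deposited these became 0 and 5, and without Rover 1, 2 and 3. All 6 positive ones are subunits or partners of the proton pump V-ATPase, with Vha100-4 and Vha44 at 0.81 ± 0.42 and 0.81 ± 0.28. The negative ones are the potassium channels Irk3 and Irk1, at -0.72 ± 0.50 and -0.69 ± 0.32. Each V-ATPase gene of the list had a positive mean. The remaining members were not called, with Best2, Lkr and Nha1 at -0.51, -0.48 and -0.30 and Irk2 and salt at 0.24 and 0.28. The list median therefore describes its V-ATPase genes more than tubule markers in general.

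Among storage and fat body proteins 4 of 9 were called positive (44.4%, beside 15.9% of all genes) and 0 negative, with the highest list median, 0.49. As deposited 0 were positive and 1 negative, and without Rover 1, 2 and 1. Beside Fbp2 the called genes were the yolk protein genes Yp3 and Yp1, at 0.73 ± 0.39 and 0.49 ± 0.17, and the lipoprotein gene apolpp at 0.45 ± 0.18. Single spots of apolpp ranged from -1.26 to 0.94 over the Rover arrays, so they did not share a sign. Lsp2, a larval serum protein, read 0.21, 0.00, 2.24 and 1.29 and was not called (adjusted p = 0.0762), and Fbp1 read -0.56, -0.28, 1.34 and 1.82. In Lsp2, Fbp1 and Fbp2, Rover 3 and 4 were above Rover 1 and 2.

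The 12 haemocyte and basement membrane genes held 2 positive calls, PPO3 and PPO2, and 1 negative, eater at -0.47 ± 0.15, a phagocytic receptor of plasmatocytes (median 0.00). That is 16.7% and 8.33%, beside 15.9% and 17.6% of all genes. PPO2, the prophenoloxidase of crystal cells, read 0.75, 0.81, 0.93 and 0.78, a mean of 0.82 ± 0.08. The plasmatocyte marker Hml had -0.40 and was not called. Of 12 genes of antimicrobial peptides and recognition 2 were positive (16.7%, near the 15.9% of all genes) and 0 negative (median 0.31), and as deposited 0 and 2. They were Drsl5, of the Drosomycin family, at 0.76 ± 0.32 and the serpin gene nec at 0.51 ± 0.10. Drosomycin itself (Drs) read 1.72, 1.62, -0.75 and 1.75 and was not called.

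Of 13 muscle markers 2 were positive and 1 negative, 15.4% and 7.69% beside 15.9% and 17.6% of all genes (median 0.28). Without Rover 1 these became 5 and 0. The positive ones were the myosin light chain gene Mlc2 at 0.65 ± 0.21 and Actn at 0.54 ± 0.14. The negative one was TpnC41C at -0.47 ± 0.22. The 63 cuticle genes had 14 positive (22.2%) and 9 negative (14.3%) calls (median 0.02), and as deposited 2 and 22. They ran from Cpr73D at 0.93 ± 0.25, TwdlT at 0.86 ± 0.17 and the chitinase gene Cht9 at 0.80 ± 0.26 to Cpr78E at -1.04 ± 0.75. Of 12 ecdysone response genes 1 was called, the receptor partner usp at 0.52 ± 0.18 (median -0.01). Testis and germline markers had 4 of 9 negative (44.4%) and 0 positive (median -0.54). The negative ones included bam, a gene of germline differentiation, at -1.16 ± 0.60 and dj at -0.85 ± 0.66. The others were Mst98Cb at -0.71 ± 0.21 and osk at -0.54 ± 0.21. Of 6 salivary glue and late puff genes 2 were negative (33.3%) and 0 positive (median -0.44). They were Eig71Ed at -0.80 ± 0.34 and ng2 at -0.76 ± 0.61.

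Among the 8 genes that varied most between arrays, 5 were split between Rover 1 and 2 on one side and Rover 3 and 4 on the other. The lysosomal alpha-mannosidase genes LManVI and LManV read -3.30, -2.77, 2.24 and 2.16, and -3.13, -1.81, 1.93 and 2.28, and their means of -0.42 and -0.18 describe no single array. Eig71Ee, a late puff gene of the salivary gland, read -0.13, 0.15, 4.12 and 5.24. The lipase genes CG6283 and CG6277 read -3.28, -3.54, 0.16 and 0.14, and -2.95, -3.59, -0.02 and -0.36. The glue gene Sgs4 was of the same kind, at -2.89, -3.32, -0.33 and -0.06. None of these 6 genes was called. Gycalpha99B itself has the same signs as LManVI and LManV on each array.

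Rover 2 and Rover 3 lie on opposite sides of this split. Both were of print lot B, were hybridised for 17.75 hours and were scanned at gains of 74 (Cy3) and 64 (Cy5). Print lot, hybridisation time and Cy5 gain set only Rover 1 apart from the other arrays. The part of any technical factor in this split was not tested. With Rover 1 and 2 averaged, and Rover 3 and 4 averaged, a choice made after the data were seen, 178 positive and 438 negative genes were called. In the remaining 3 genes Rover 3 alone was extreme. CG11590 was 5.97 there and at most 0.50 elsewhere, Srp68, of the signal recognition particle, was -4.18, and CG17778 was -3.71. The 2 spots of CG11590 and of CG17778 disagreed there, with single spots reaching 11.2 and -5.93.

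**Figure D4:**
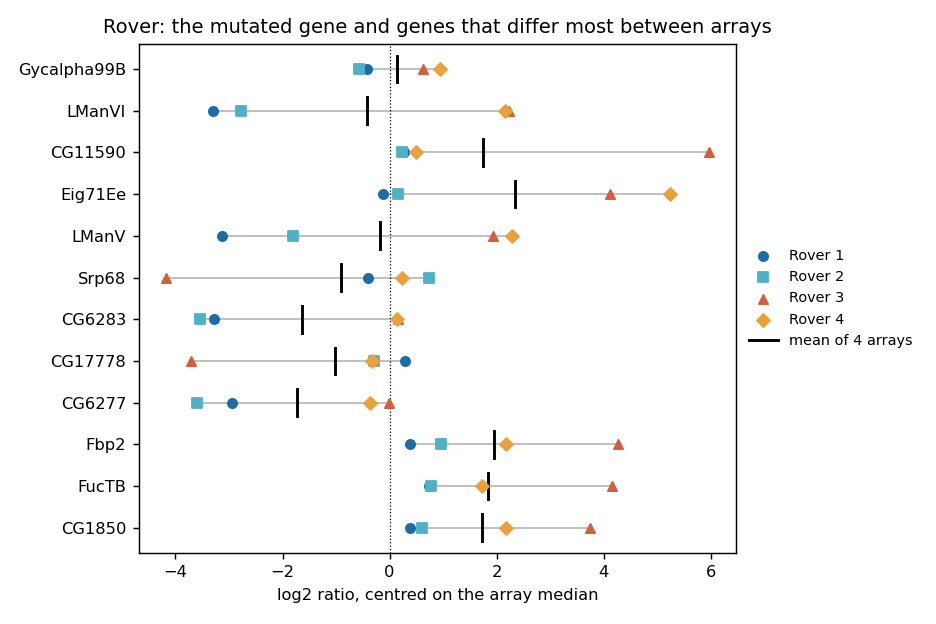
Log2 ratio, centred on the array median, of the mutated gene Gycalpha99B, the 8 genes with the largest SD over the Rover arrays, and Fbp2, FucTB and CG1850. Each symbol is 1 array and the black bar is the mean of 4 arrays. Gycalpha99B, LManVI and LManV are negative on Rover 1 and 2 and positive on Rover 3 and 4.

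Most of the Rover ratios had the same sign in sitter. Of the 2277 called genes 2156 (94.7%) had a sitter mean of the same sign, beside 83.0% of all genes. The part of a dye or channel bias in this agreement was not tested. Rover and sitter arrays did not overlap in 407 of the called genes (17.9%) beside 8.99% of all genes. A call rests on the same Rover arrays, which favours non-overlap. Among the 111 called genes with a mean over 1 in size, 98 had the same sign in sitter and 27 did not overlap.

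Tested directly as Rover minus sitter over all 8 arrays, 6 genes were called, which is 0.0883% of the genes. CG11911 had a difference of -3.93 (adjusted p = 8.8e-05), from a mean of -3.55 in Rover and 0.38 in sitter. CG9360, a short-chain dehydrogenase gene, read 0.68, 0.99, 1.76 and 0.81 in Rover and -2.19, -2.59, -2.19 and -2.06 in sitter, a difference of 3.32 (adjusted p = 0.00084). In both genes the backgrounds had opposite signs and did not overlap. CG9360 was called under each of the 13 alternatives run, and CG11911 under each but 1, the scaling of the centred arrays (adjusted p = 0.0584). Within print lot B alone their adjusted p-values were 0.0197 and 0.0136.

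The other 4 genes were positive in Rover and negative in sitter. Prx6c, a peroxiredoxin gene, had 1.13 ± 0.44 in Rover and -0.80 in sitter (adjusted p = 0.025), and Alp7, an alkaline phosphatase gene, had 0.97 ± 0.22 and -0.55 (adjusted p = 0.0365). CG7382 had 0.54 ± 0.24 and -0.89 (adjusted p = 0.025), and PPO2 had 0.82 ± 0.08 and -0.36 (adjusted p = 0.0438). Single spots of CG7382 ranged from -0.64 to 1.47 over the Rover arrays, so they did not share a sign. Each of these 4 genes lost its call in most alternatives, PPO2 in all 13. CtsL2 came next to them at a difference of -1.08 (adjusted p = 0.053), with Rover and sitter arrays that did not overlap. Of the 20 genes with the largest Rover means, 11 did not overlap with sitter, beside 8.99% of all genes. These 20 were chosen by their values on the same Rover arrays, which favours non-overlap. Only 1 of them, CG11911, was called in the difference. Cyp6a14 had -1.66 in Rover and -0.04 in sitter and mRpS34 had 1.34 and -0.31, and neither difference passed (adjusted p = 0.07 for both).

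**Figure D5:**
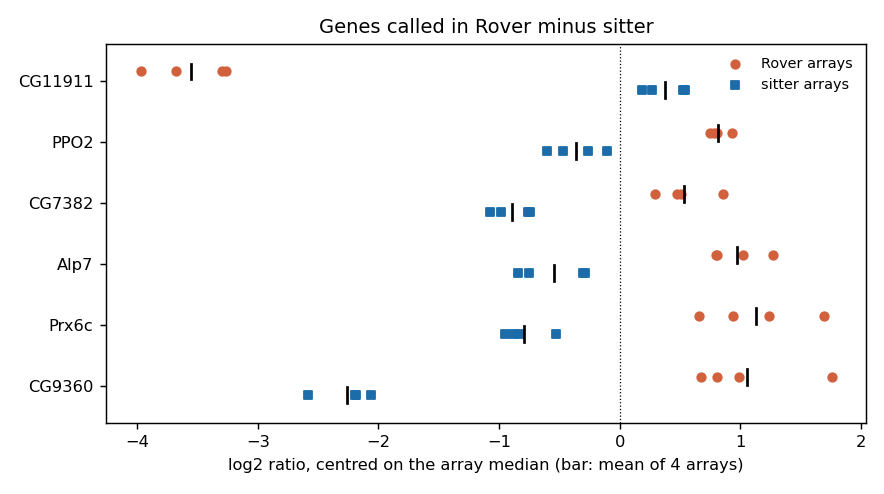
Log2 ratio, centred on the array median, of the 6 genes called in Rover minus sitter, on 4 Rover arrays (orange circles) and 4 sitter arrays (blue squares), with the mean of 4 arrays as a bar. CG11911 is negative in Rover and positive in sitter, and the other 5 are positive in Rover and negative in sitter.

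The genes around the mutated locus were counted as well. Of the 20 measured genes nearest to Gycalpha99B, 10 on each side in the Release 6 gene order, 4 were called positive (20%) and 2 negative (10%), beside 15.9% and 17.6% of all genes (median 0.12), a description added after the data were seen. Cap-D2, CG2006, Wdr24 and CG7601 had 0.67, 0.56, 0.48 and 0.40, and CG2310 and Obp99d had -1.15 and -0.56. Obp99b, already described, is also among them.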

How the data were processed

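RNA of whole larvae (80 µg per direct labelling) was hybridised to spotted cDNA arrays in 2 colours. Per the labels, scanning used a ScanArray 4000, and QuantArray version 3 read the spots with its adaptive algorithm and subtracted no background. The authors derived the deposited values, 1 log2 ratio per spot and array, from normalised data, per the labels. Base 2 is assumed, and the log base, numerator, dyes and method of normalisation are not stated there. No sign was turned, and without intensities dim spots could not be filtered.

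Of 27648 spots per array 15116 had 1 gene symbol, 102 had several and 12430 were unlisted; gene IDs of 14894 matched the Release 6 gene table. Averaging spots of a gene gave 6793 genes beside 12532 single spots. Each array was centred on its median over these 19325 features. The Rover mean was fitted with limma 3.58.1 in R 4.3.3 (intercept only, 3 residual degrees of freedom), and Rover minus sitter with a mean per background over 8 arrays. Benjamini-Hochberg adjustment ran over the 19325 features, with calls at under 0.05. Values with ± are mean and SD over 4 arrays, whose number limits precision. On simulated data of 19325 features the Rover fit recovered 0% of changes of 0.5 (log2), 26.9% of 1 and 80.3% of 2. Of its calls 4.05% were false. A small part of the simulated features carried a change, and features did not vary together. On the real arrays 7180 features were called, and the smallest mean among called genes was 0.38 in size. The simulated rates therefore give neither the sensitivity nor the false share of the calls reported here.

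Named genes are the mutated gene, the 10 largest and the 10 of smallest p per direction among called genes of one sign on all arrays, up to 4 such members per list, the 8 of largest SD and the called differences. Others were named after their values were seen. Members and lists were chosen with earlier results of these data known, and 4 list entries that matched unrelated genes were removed or narrowed after values were seen. Alternatives covered centring, scaling, moderation, array weights, single spots, a fold threshold, print lot, replicate number and leaving out each array. Sequences are not used here.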

Additional observations from a re-analysis of the deposited data

Results flagged for a closer look

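Of the 133 named genes, 15 had 1 Rover array set apart from the other 3 by more of the whole range than Dixon's limit for 4 values allows. Chance alone marks about 1 in 20 groups of samples not chosen by their values. Most of these genes were named for their values on the same arrays, so that rate is no yardstick for the 15. Rover 1 was the array set apart in 6 genes: CG10738 at -2.46, Cyp312a1 at -2.70, Pde1c at -1.37, FMRFa at -0.34, Gyc89Db at -0.23 and Lip3 at -0.51. Rover 2 was set apart in Yp1 at 0.75. Rover 3 was set apart in CG11590 at 5.97, CG17778 at -3.71, Cyp6a23 at -3.23, TpnC41C at -0.79 and Yp3 at 1.32. The 2 spots of CG11590 and of CG17778 disagreed there. Rover 4 was set apart in Cyp6a14 at -0.88, Pkg21D at 0.83 and RpS10a at 0.67.

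A difference between backgrounds was called in the limma test for 6 genes. Rover minus sitter was -3.93 for CG11911, 3.32 for CG9360, 1.93 for Prx6c, 1.43 for CG7382, 1.52 for Alp7 and 1.18 for PPO2, with 4 arrays per background.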

How the results depend on the processing

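The counts of calls were the least stable results. Called features numbered 7180 with all 4 arrays, 3 to 6110 when 1 Rover array was left out, 4 against a fold of 1.5 and 2732 with replicates 1 with 2 and 3 with 4 averaged, a choice made after seeing the data. Genes called positive and negative then numbered 0 to 746 and 1 to 1057, 0 and 1, and 178 and 438. They numbered 72 and 2683 without centring, and 1709 positive with all 8 arrays in 1 fit. Scaling, robust moderation, array weights, named genes only and single spots kept the counts run under them within 1.5 times. In Rover minus sitter 15 features were called, 9 without centring, 1 scaled, 7 on print lot B alone and 5 to 11 when 1 array was left out. Its 6 genes became 1 scaled, 2 on print lot B and 2 to 5 with an array left out. Replicate numbers did not pair the arrays (correlations of same-numbered deviations 0.310, 0.123, 0.062 and 0.057, and 2 of 4 arrays matched best with their own number), and with a replicate block 6 features and 2 genes were called.

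With 1 Rover array left out, the list median minus that of all genes ran from 0.248 to 0.335 for Malpighian markers, -0.043 to 0.040 for cuticle, -0.090 to 0.016 for ecdysone response, -0.404 to -0.259 for neuropeptides and amines, -0.651 to -0.476 for testis and germline and 0.242 to 0.297 for translation. Other lists moved by over 1.5 times at an extreme but within 1 SD of their spread between arrays: -0.690 to -0.268 for salivary glue, -0.192 to -0.073 for cGMP signalling, -0.171 to 0.021 for sugar digestion, -0.050 to 0.198 for the proteasome, -0.041 to 0.136 for mitochondrial ribosomal proteins, -0.121 to -0.002 for replication, -0.145 to 0.001 for haemocytes, -0.135 to -0.050 for stress, -0.101 to -0.011 for neuronal markers, 0.024 to 0.110 for GST and UGT, 0.054 to 0.111 for lipids and 0.172 to 0.330 for muscle.

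Means of uncalled genes changed sign. Without centring Gycalpha99B was -0.26, CngB -0.20, Pde8 -0.22 and Pkg21D -0.35. Scaled, CG31183 was 0.0083 and Pde11 0.0024. With 1 Rover array left out, means ran from -0.12 to 0.39 for Gycalpha99B, -1.30 to 0.54 for LManVI, -1.0 to 0.80 for LManV, -1.45 to 0.19 for Srp68, -0.10 to 0.069 for CG31183, -0.29 to 0.13 for Nos, -0.12 to 0.031 for Pde11 and -0.20 to 0.17 for Pkg21D.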
